A study of Homo sapiens with 8 samples.

Results

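The genes described are 9 MAP kinase phosphatases of the dual-specificity phosphatase (DUSP) family, DUSP1, DUSP2, DUSP4, DUSP5, DUSP6, DUSP7, DUSP8, DUSP10 and DUSP16, out of 58219 genes listed for each library. They were chosen by gene symbol, with no threshold on a measured value, but the list was drawn up with results of these data in view, the rise of DUSP16 with fluvastatin among them. The fluvastatin response of DUSP16 is therefore given as a description with no p, and counts of called members are given with and without it. RNA was sequenced from the MM cell lines H929 and KMS11, each grown for 24 h in 2 µM fluvastatin or in ethanol, the solvent, with 2 replicates of each line and treatment (8 libraries). Fluvastatin inhibits HMG-CoA reductase, the rate-limiting enzyme of the mevalonate pathway, and both lines, in either treatment, carry the t(4;14) translocation, which brings FGFR3 and NSD2 under immunoglobulin enhancers. Each line comes from the tumor of 1 patient, so a difference between the lines cannot be told apart from any other difference between those tumors.

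MAP kinases are switched on when an upstream kinase phosphorylates a threonine and a tyrosine in their activation loop, and MAP kinase phosphatases remove both phosphates. A kinase interaction domain ahead of the catalytic domain gives each phosphatase its choice of substrate. DUSP8, DUSP10 and DUSP16 act mainly on JNK and p38, the kinases of the stress cascades. DUSP5, which is nuclear, and DUSP6 and DUSP7, which are cytosolic, act mainly on ERK, the kinase of the growth factor cascade. DUSP1, DUSP2 and DUSP4 are nuclear, are induced by mitogens and stress, and act on a broader range of MAP kinases. Many of these genes are themselves transcribed in response to the kinase they switch off, so that they form negative feedback loops, and FGFR3 signals in part through ERK. The measurements are of RNA, so phosphatase protein and kinase phosphorylation were not measured, and fewer cells of a kind and less RNA per cell cannot be told apart in such libraries.

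Of the 9 genes, 7 had a promoter window in the RefSeq table of GRCh38.p14, and DUSP4 and DUSP5 were not searched. For the 7, the 250 bases before the start site were searched for 6 motifs on both strands. Promoters of the 3 JNK/p38-directed genes are shown because their RNAs moved together. That of DUSP1 is shown because it is the other gene searched that had a match to the cAMP response element (CRE). Capitals mark the CRE, TGACGTCA, the palindrome bound by CREB and by JUN and ATF family dimers. Each is written 5′ to 3′ on the minus strand, on which all 4 genes lie. The windows are chr11:1572272-1572521 for DUSP8, chr1:221742090-221742339 for DUSP10, chr12:12562864-12563113 for DUSP16 and chr5:172771196-172771445 for DUSP1.
DUSP8: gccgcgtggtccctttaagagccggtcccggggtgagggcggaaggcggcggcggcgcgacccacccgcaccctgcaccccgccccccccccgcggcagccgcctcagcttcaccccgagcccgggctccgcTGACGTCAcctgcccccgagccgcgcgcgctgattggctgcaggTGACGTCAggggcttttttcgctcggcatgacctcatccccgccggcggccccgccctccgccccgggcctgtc
DUSP10: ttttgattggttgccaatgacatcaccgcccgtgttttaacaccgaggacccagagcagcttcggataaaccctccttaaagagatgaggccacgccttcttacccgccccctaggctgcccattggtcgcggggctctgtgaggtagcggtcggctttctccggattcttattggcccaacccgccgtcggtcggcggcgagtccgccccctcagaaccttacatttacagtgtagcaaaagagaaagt
DUSP16: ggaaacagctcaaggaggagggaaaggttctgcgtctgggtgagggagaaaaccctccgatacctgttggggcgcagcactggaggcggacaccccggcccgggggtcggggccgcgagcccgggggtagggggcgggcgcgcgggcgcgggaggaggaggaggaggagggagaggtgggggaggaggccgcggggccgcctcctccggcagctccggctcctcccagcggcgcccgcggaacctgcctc
DUSP1: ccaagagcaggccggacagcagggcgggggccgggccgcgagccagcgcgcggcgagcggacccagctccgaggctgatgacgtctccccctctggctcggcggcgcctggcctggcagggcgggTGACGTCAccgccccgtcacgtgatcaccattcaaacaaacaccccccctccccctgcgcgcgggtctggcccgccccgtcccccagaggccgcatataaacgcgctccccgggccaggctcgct

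The DUSP8 promoter held 2 CREs, 118 and 74 bases before the start, and the DUSP1 promoter held 1, which lay 125 bases before it. Over all 35116 promoter windows of this length, 1.65% held this motif. It was not found in the windows of DUSP2, DUSP6, DUSP7, DUSP10 (both of its starts) or DUSP16. The AP-1 motif TGACTCA, present in 4.20% of all windows, matched none of the 7 members searched. The same held for the motif TGATGCAA that ATF4 dimers bind (0.772%) and the CArG box of serum response factor (1.16%). The GC box GGGCGG, which 42.6% of all windows hold, was present in 6 of the 7 members and absent from DUSP6, and the TATAAA element (10.7% of all windows) was present in DUSP1. These are matches of letters in 1 window per start site and do not show that a factor was bound. The DUSP8 window lies before the gene start. A short form beginning 12828 bases after it took most of the abundance assigned to DUSP8 in fluvastatin, and the bases before that form were not searched.

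With fluvastatin, the JNK/p38-directed phosphatases were higher in both lines and the ERK-directed phosphatases were level or lower. DUSP16 was 4.29-fold and DUSP10 2.32-fold higher across both lines, and DUSP8 went from 0 or 1 counts per library to between 41 and 77. DUSP6 and DUSP7 were 1.29-fold and 1.45-fold lower, and DUSP5, the most abundant member, was not distinguishable from ethanol across both lines. Values are TMM-scaled counts scaled to library size (CPM), fold changes are fluvastatin over ethanol, and tests are quasi-likelihood F tests in edgeR, adjusted by the Benjamini-Hochberg procedure over 13129 protein-coding genes at a threshold of 0.05. All 9 members passed the filter on low counts, DUSP8 only through its fluvastatin libraries, so that it had to differ and no p is given for it.

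Of the 7 members other than DUSP8 and DUSP16, 3 were called across both lines, DUSP10 higher and DUSP6 and DUSP7 lower, where 10.4% of all tested genes were called, 6.50% higher and 3.93% lower. Within H929, 4 of the 7 were called, DUSP10 higher and DUSP2, DUSP6 and DUSP7 lower, against 42.0% of all tested genes (22.7% higher, 19.3% lower). Within KMS11, 2 of the 7 were called, DUSP1 and DUSP10, both of them higher, against 3.12% of all tested genes (2.58% higher, 0.533% lower). With DUSP8 and DUSP16 counted in, 5 of 9 members were past the threshold across both lines, 6 in H929 and 4 in KMS11. Because the members were listed with fluvastatin results known, nothing is read from these shares. The median log2 fold change over the 9 members was -0.02 across both lines, beside 0.03 over all tested genes.

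**Figure D1:**
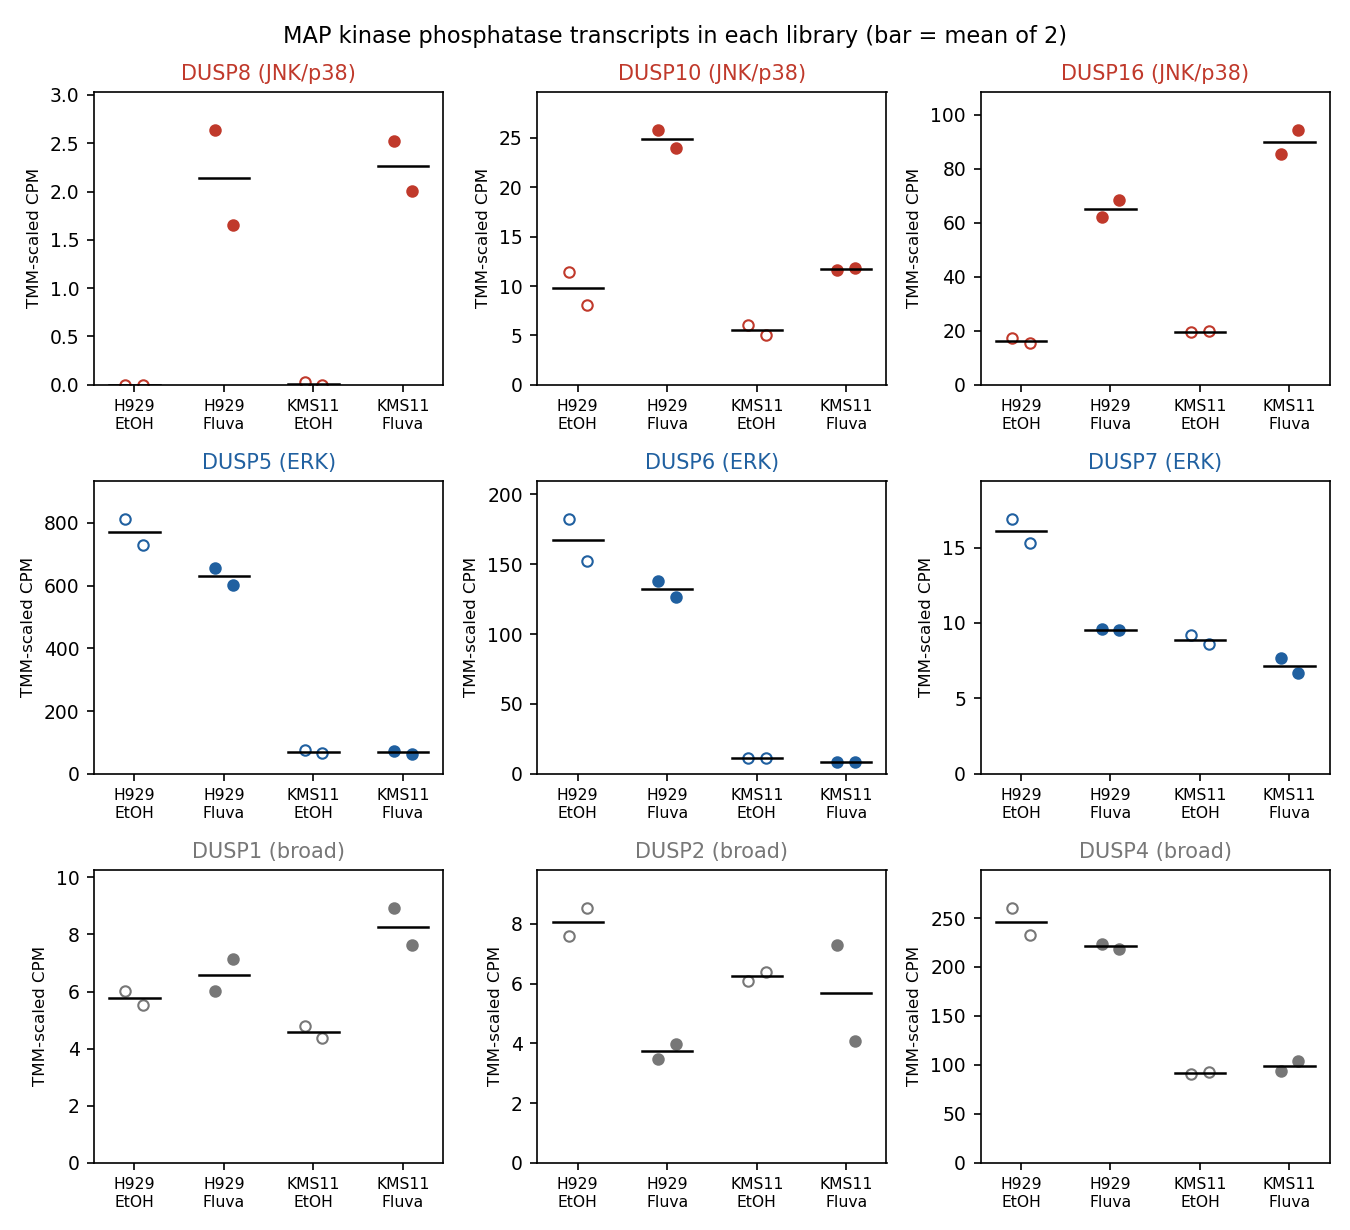
TMM-scaled CPM (y axis, linear, from 0) of the 9 members in each of the 8 libraries, by line and treatment (x axis), with open circles for ethanol (EtOH), filled circles for fluvastatin (Fluva) and a black bar for the mean of 2 libraries. DUSP8, DUSP10 and DUSP16 separated by treatment in both lines, whereas DUSP4, DUSP5 and DUSP6 separated mainly by line. DUSP8 passed the filter only through its fluvastatin libraries, and DUSP16 was listed with its rise known.

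Among the JNK/p38-directed members, DUSP16 (chr12:12473282-12562863, minus strand, ENSG00000111266.8) shuttles between cytoplasm and nucleus and prefers JNK. In H929 it was at 17.2 and 15.3 CPM in ethanol and at 62.2 and 68.3 CPM in fluvastatin. In KMS11 it was at 19.5 and 19.8 CPM in ethanol and at 85.4 and 94.3 CPM in fluvastatin. Every fluvastatin library lay above every ethanol library of either line, and replicates differed far less than treatments. Because DUSP16 was listed with this rise in view, both are description and no further evidence for it. The log2 fold change of DUSP16 was 2.01 (SE 0.11) in H929 and 2.19 (SE 0.11) in KMS11. On the per-length scale the H929 fluvastatin replicates were further apart, at 6.42 and 9.52 TPM, the length-scaled abundance of RSEM, which gave DUSP16 a mean effective length of 4473 and 3379 bases in these libraries.

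DUSP10 (chr1:221701424-221742089, minus strand, ENSG00000143507.17) acts on p38 and JNK in cytoplasm and nucleus. Its level in H929 was 11.4 and 8.12 CPM in ethanol and 25.8 and 24.0 CPM in fluvastatin. In KMS11 the corresponding values were 6.05 and 5.01 CPM and 11.7 and 11.8 CPM. The treatments did not overlap in either line, although fluvastatin brought KMS11 only to the level of the higher H929 ethanol library. DUSP10 rose by a log2 fold change of 1.22 across both lines (SE 0.15, adjusted p = 0.0037). It rose by 1.34 in H929 (SE 0.18, adjusted p = 3.3e-04) and by 1.09 in KMS11 (SE 0.19, adjusted p = 0.014). The KMS11 call rested on both ethanol libraries of that line, since without replicate 1 or without replicate 2 it no longer passed, nor did it with limma on TPM.

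DUSP8 (chr11:1554051-1572271, minus strand, ENSG00000184545.10), a JNK and p38 phosphatase best known from brain, heart and skeletal muscle, was not detected in ethanol apart from 1 read. In H929 it had 0 counts in both ethanol libraries and 60 and 41 counts in fluvastatin, or 2.64 and 1.65 CPM. In KMS11 it had 1 and 0 counts in ethanol and 70 and 77 counts in fluvastatin, or 2.53 and 2.01 CPM. All 4 fluvastatin libraries lay above all 4 ethanol libraries. Against a floor of 3 counts per ethanol library, DUSP8 was at least 19.3-fold higher in H929 (floor 0.111 CPM) and 28.3-fold higher in KMS11 (floor 0.0802 CPM). In KMS11 the counts gave a ratio of 167, which rests on 1 ethanol read, under that floor. Its exact 95% interval of 29.5 to 6631 covers counting error only, and the lower limit of the same interval in H929 was 30.7. DUSP8 was kept only through its fluvastatin libraries, so the separation and these limits are description and no test. Even in fluvastatin DUSP8 stayed the least or next to least abundant member, at 1.11 and 1.04 TPM in H929 and 1.76 and 1.86 TPM in KMS11.

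The mean transcript length that RSEM gave DUSP8 shows which of its annotated transcripts the reads were assigned to. A transcript of 637 bases in 5 exons (chr11:1557523-1559443), with no coding sequence annotated and beginning 12828 bases after the gene start, took between 83.1% and 93.9% of the abundance and between 34.4% and 62.1% of the counts in the 4 fluvastatin libraries. The rest went to the long coding transcripts, the shorter of which has 4455 bases. The TPM of DUSP8 therefore rests largely on a short form with no coding sequence annotated, whereas its CPM does not depend on length. These shares are RSEM assignments of few counts and do not show which transcript was made. A pseudogene, DUSP8P5, had 8 and 4 counts in ethanol and 25 and 12 in fluvastatin in H929, and between 2 and 7 counts in KMS11. Reads divided between DUSP8 and this copy are uncertain, and their part in the result was not tested. DUSP8 is also the member richest in G and C (64.2%, as the mean over its annotated transcripts). The trend of fold change with GC content predicted a log2 difference of 0.48 at this GC content in KMS11 and -0.08 in H929. With the trend removed, the edgeR log2 fold change of DUSP8 was 6.66 in place of 7.02 in KMS11 and 8.64 in place of 9.02 in H929. These estimates rest on ethanol counts of 0 or 1 per library, and the part of GC content was not tested further.

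**Figure D2:**
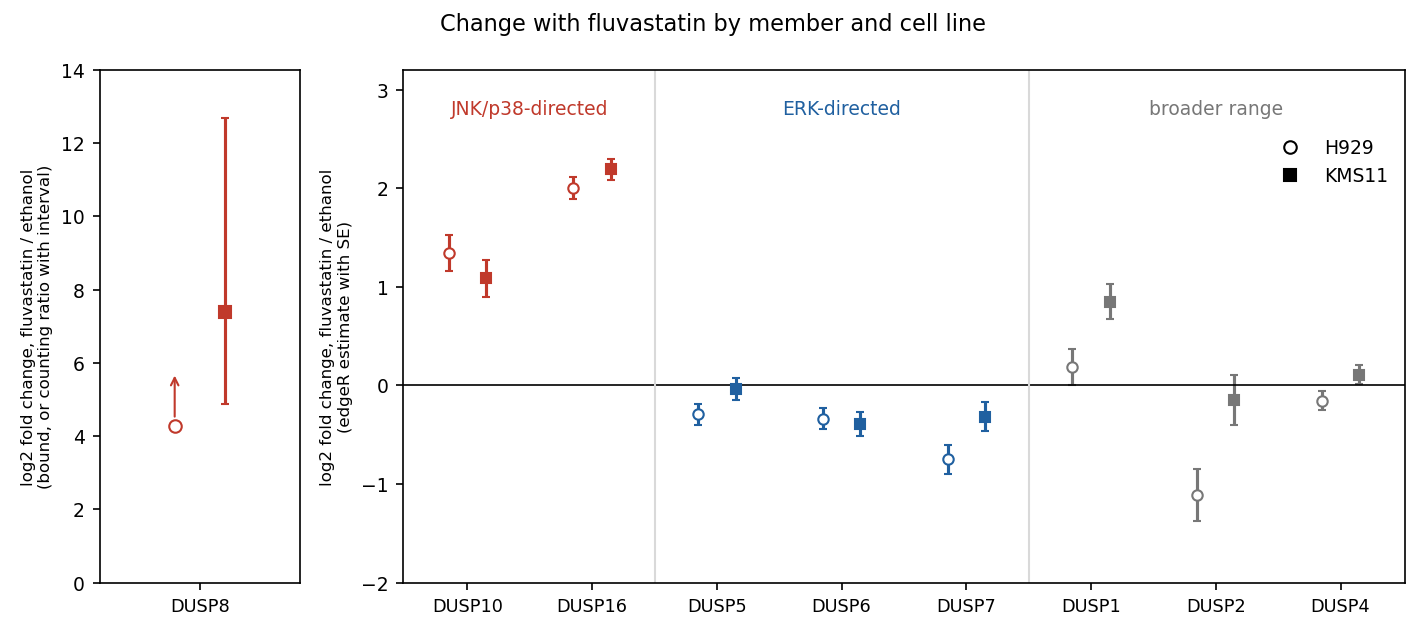
Log2 fold change of fluvastatin over ethanol (y axes) for each member (x axis) in H929 (open circles) and KMS11 (filled squares). In the left panel the H929 point for DUSP8 is a lower bound of 19.3-fold, marked by an arrow. The KMS11 point is a ratio of counts with its exact 95% interval, which covers counting error only and is no test. These are unlike measures, so the left panel does not compare the lines. In the right panel bars are standard errors. DUSP10 and DUSP16 lie above 1 in both lines and no ERK-directed member lies above 0.

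Of the ERK-directed members, DUSP5 (chr10:110497907-110511533, plus strand, ENSG00000138166.5) is the nuclear ERK phosphatase that also anchors ERK in the nucleus. In H929 it was at 812 and 729 CPM in ethanol and 656 and 603 CPM in fluvastatin. In KMS11 it was at 74.8 and 66.3 CPM in ethanol and 73.8 and 64.1 CPM in fluvastatin. The H929 treatments did not overlap, whereas the KMS11 treatments did. The log2 fold change of -0.29 in H929 (SE 0.11, adjusted p = 0.053) just missed the threshold and passed it in 9 of 17 alternatives, DESeq2 among them. In KMS11 it was -0.03 (SE 0.11, adjusted p = 0.89), with a 95% interval from -0.28 to 0.21.

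DUSP6 (chr12:89347235-89352501, minus strand, ENSG00000139318.7), the cytosolic ERK phosphatase whose RNA is widely used as a readout of ERK signaling, was at 182 and 152 CPM in H929 in ethanol and at 138 and 126 CPM in fluvastatin. KMS11 cells had 11.1 and 11.3 CPM in ethanol and 8.31 and 8.74 CPM in fluvastatin. It was lower in fluvastatin with no overlap in either line, and the size of the change was close in both. DUSP6 fell by 0.36 on the log2 scale across both lines (SE 0.09, adjusted p = 0.037) and by 0.34 in H929 (SE 0.11, adjusted p = 0.027). In KMS11 the log2 fold change was -0.39 (SE 0.12, adjusted p = 0.12). The call across both lines was lost when any 1 of the H929 libraries or of the KMS11 ethanol libraries was left out, and the H929 call without ethanol replicate 1 or fluvastatin replicate 2. An antisense non-coding RNA shares exonic bases with DUSP6, but had only 5 to 16 counts per library.

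DUSP7 (chr3:52048919-52056571, minus strand, ENSG00000164086.9), the other cytosolic ERK phosphatase, was at 16.9 and 15.3 CPM in H929 in ethanol and at 9.62 and 9.51 CPM in fluvastatin. KMS11 cells had 9.21 and 8.59 CPM in ethanol and 7.66 and 6.68 CPM in fluvastatin. The treatments did not overlap in either line, with a gap in H929 that was several times the spread of its replicates. DUSP7 fell by 0.75 on the log2 scale in H929 (SE 0.15, adjusted p = 0.0030) and by 0.53 across both lines (SE 0.14, adjusted p = 0.045). In KMS11 the log2 fold change was -0.32 (SE 0.15, adjusted p = 0.25). The call across both lines was lost without any 1 library other than KMS11 fluvastatin replicate 1, and with library size scaling (adjusted p = 0.051). In KMS11 the trend with GC content was worth 0.29 at DUSP7, and with that trend removed DUSP6 and DUSP7 were both called lower there, which gave 6 members called in place of 4. The share of all tested genes called with the trend removed is not given.

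Of the broader-range members, DUSP1 (chr5:172768096-172771195, minus strand, ENSG00000120129.5), the nuclear immediate early phosphatase that acts on p38, JNK and ERK, was at 6.02 and 5.52 CPM in H929 in ethanol and at 6.02 and 7.13 CPM in fluvastatin. The KMS11 libraries had 4.78 and 4.38 CPM in ethanol and 8.92 and 7.62 CPM in fluvastatin. The KMS11 treatments were apart and those of H929 were not. DUSP1 rose in KMS11 by a log2 fold change of 0.85 (SE 0.18, adjusted p = 0.037), and was at 0.19 in H929 (SE 0.18, adjusted p = 0.45). The KMS11 call was lost in 7 of 17 alternatives, among them leaving out either H929 ethanol library, either KMS11 ethanol library or KMS11 fluvastatin replicate 1.

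DUSP2 (chr2:96143169-96145440, minus strand, ENSG00000158050.4), a nuclear phosphatase of activated lymphocytes and other blood cells, was at 7.59 and 8.52 CPM in H929 in ethanol and at 3.47 and 3.99 CPM in fluvastatin. The KMS11 libraries had 6.08 and 6.40 CPM in ethanol and 7.29 and 4.07 CPM in fluvastatin. The H929 treatments were clearly apart, whereas the KMS11 fluvastatin replicates lay on either side of both ethanol libraries. DUSP2 fell by 1.11 on the log2 scale in H929 (SE 0.27, adjusted p = 0.0079), with a value of -0.15 in KMS11 (SE 0.25, adjusted p = 0.76). The KMS11 value turned to 0.18 without fluvastatin replicate 2.

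DUSP4 (ENSG00000120875.8), the other inducible nuclear phosphatase, was at 260.0 and 233 CPM in H929 in ethanol and 223 and 219 CPM in fluvastatin. The corresponding KMS11 values were 90.3 and 92.7 CPM and 93.3 and 104 CPM. It was slightly lower in H929 and slightly higher in KMS11, without overlap of the treatments in either line, and neither difference passed the test. A lack of overlap between so few libraries does not by itself show a change. The log2 fold change was -0.16 in H929 (SE 0.09, adjusted p = 0.22) and 0.11 in KMS11 (SE 0.10, adjusted p = 0.53). Across both lines none of the 3 broader-range members was called by edgeR, although DUSP1 and DUSP2 had an unadjusted p under 0.05, and DESeq2 called 1 of them, DUSP1, at a log2 fold change of 0.51. DUSP2, at -0.61 across both lines (adjusted p = 0.14), was called at -0.82 with the GC trend removed and at -0.92 without KMS11 fluvastatin replicate 1.

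The response of each member was compared between the lines as KMS11 minus H929, which is not the response the members were listed for. No member differed by edgeR at the threshold, where 23.2% of all tested genes did. At an unadjusted p under 0.05 there were 2, DUSP1 and DUSP2, and DESeq2 called 0. DUSP2 came nearest, with a difference of 0.96 (95% interval 0.14 to 1.78, adjusted p = 0.084), followed by DUSP1 at 0.66 (0.09 to 1.24, adjusted p = 0.088). For DUSP16 the difference was 0.19 (-0.16 to 0.53, adjusted p = 0.41) and for DUSP10 it was -0.26 (-0.83 to 0.32, adjusted p = 0.50). The interval for DUSP10 reaches a large part of its response in either line, so that the responses are not shown to be alike. DUSP2 passed the threshold without KMS11 fluvastatin replicate 2 (1 member called).

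Set side by side by class, the JNK/p38-directed members had a median log2 fold change of 2.01 in H929 against -0.34 for the ERK-directed members, and in KMS11 the medians were 2.19 and -0.32. The difference of the class medians was 2.34 in H929, 2.51 in KMS11 and 2.46 across both lines. In each case the JNK/p38-directed median was the value of DUSP16 itself, the member whose rise was known when the list was drawn up. The broader-range members had medians of -0.16 in H929 and 0.11 in KMS11, nearer to the ERK-directed class. The lowest JNK/p38-directed value, that of DUSP10, was 1.34 in H929 and 1.09 in KMS11, and the highest ERK-directed value, that of DUSP5, was -0.29 and -0.03, so the classes did not overlap in either line. With DUSP1 counted as JNK/p38-directed and DUSP2 and DUSP4 as ERK-directed, the differences were 2.01, 1.79 and 2.02 in the same order. Each class holds 3 genes, which are not replicates, and both the comparison and its members were set with results known, so no test was made.

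In summed TPM, which weights each gene by its level per length, the JNK/p38-directed members made up 1.89% and 1.64% of the 9 members in H929 in ethanol and 6.47% and 8.27% in fluvastatin. In KMS11 they made up 9.94% and 11.2% in ethanol and 28.9% and 32.0% in fluvastatin. Fluvastatin libraries were higher in both lines without overlap, and KMS11 in ethanol already lay above H929 in fluvastatin. DUSP16 alone held a mean of 0.910% of the summed TPM in H929 in ethanol and 4.21% in fluvastatin. In KMS11 it held 7.02% and 21.4%. The larger part of the class rise was thus that of DUSP16, known when the list was drawn up, and is no independent class result. The ratio of ERK-directed to JNK/p38-directed TPM in H929 was 49.1 ± 4.77 in ethanol and 11.1 ± 2.14 in fluvastatin (SD, n = 2). In KMS11 that ratio was 5.20 ± 0.66 in ethanol and 1.303 ± 0.179 in fluvastatin. All 9 members together summed to 223 ± 19.7 TPM in H929 in ethanol against 190.1 ± 5.11 TPM in fluvastatin, and to 46.3 ± 3.83 against 54.5 ± 2.36 TPM in KMS11, values given with no test. DUSP5 alone held 68.0% of the summed TPM in H929 in ethanol and 43.0% in KMS11.

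**Figure D3:**
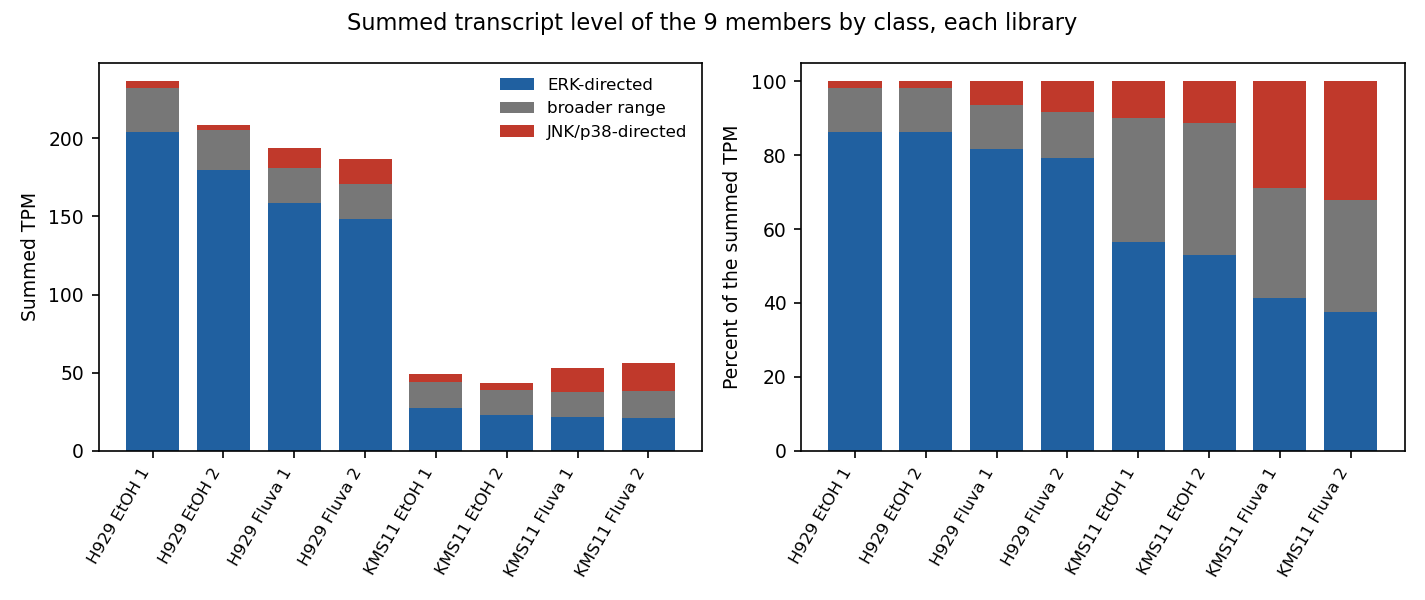
Summed TPM of the ERK-directed (blue), broader-range (gray) and JNK/p38-directed (red) members in each library (left) and the same as percent of the 9 members (right). The red share is larger in fluvastatin than in ethanol in both lines, reaching 32.0% in KMS11, and the H929 bars are several times taller than those of KMS11, by the height of the blue segment. DUSP16, whose rise was known at listing, makes up the larger part of the red share in fluvastatin.

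In ethanol the lines differed in DUSP5 and DUSP6 by far more than fluvastatin moved either gene. DUSP6 was 14.9-fold and DUSP5 10.9-fold lower in KMS11 than in H929, and DUSP4 was 2.69-fold lower. The log2 difference, KMS11 minus H929, was -3.90 for DUSP6 (SE 0.12, adjusted p = 4.4e-09), -3.45 for DUSP5 (SE 0.12, adjusted p = 8.1e-09) and -1.43 for DUSP4 (SE 0.10, adjusted p = 7.4e-07). For each of these genes the lowest H929 ethanol library was over 2 times the highest KMS11 ethanol library. DUSP7 was 1.81-fold lower in KMS11 (adjusted p = 4.9e-04) and DUSP10 1.77-fold lower (adjusted p = 0.0027), although on the TPM scale neither passed. DUSP16 was 1.21-fold higher (adjusted p = 0.048), a call that ended in 8 alternatives and whose direction turned when the GC trend was removed (-0.073). DUSP1 at -0.34 (adjusted p = 0.12) and DUSP2 at -0.37 (adjusted p = 0.21) did not pass, and DUSP2 was called higher in KMS11, at 0.59, with the GC trend removed. Of the 9 members 6 were called, 5 of them lower in KMS11, where 72.0% of all tested genes differed between the lines and 36.4% were lower, so the count is close to the background.

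Ranked by TPM in H929 in ethanol, DUSP5 stood first at 151 ± 13.3 TPM, followed by DUSP6 at 37.97 ± 3.44, DUSP4 at 22.6 ± 2.03, DUSP2 at 2.73 ± 0.09, DUSP7 at 2.42 ± 0.20, DUSP16 at 2.03 ± 0.15, DUSP10 at 1.92 ± 0.58, DUSP1 at 1.47 ± 0.11 and DUSP8 at 0 (SD, n = 2). The replicates of DUSP10 overlapped those of both its neighbors, DUSP16 and DUSP1, and other neighbors were apart. In KMS11 in ethanol the order was DUSP5 at 19.96 ± 2.78, DUSP4 at 11.5 ± 0.48, DUSP6 at 3.51 ± 0.19, DUSP16 at 3.22 ± 0.42, DUSP2 at 2.84, DUSP7 at 1.91 ± 0.20, DUSP1 at 1.67 ± 0.20, DUSP10 at 1.64 ± 0.38 and DUSP8 at 0.02. Here DUSP6 was not separated from DUSP16, nor DUSP7 from DUSP1, nor DUSP1 from DUSP10.

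In fluvastatin DUSP16 moved from the sixth to the fourth place in H929, at 7.97 ± 2.19 TPM, and from the fourth to the second in KMS11, at 11.7 ± 1.87 TPM (SD, n = 2). In KMS11 it then overlapped DUSP4 at 11.3 ± 1.59 TPM and stayed below DUSP5 at 17.6 ± 0.55 TPM. DUSP10 moved to the fifth place in H929 at 4.94 ± 0.11 TPM and to the fourth in KMS11 at 3.100 ± 0.014 TPM. DUSP5 remained the most abundant member in every group.

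**Figure D4:**
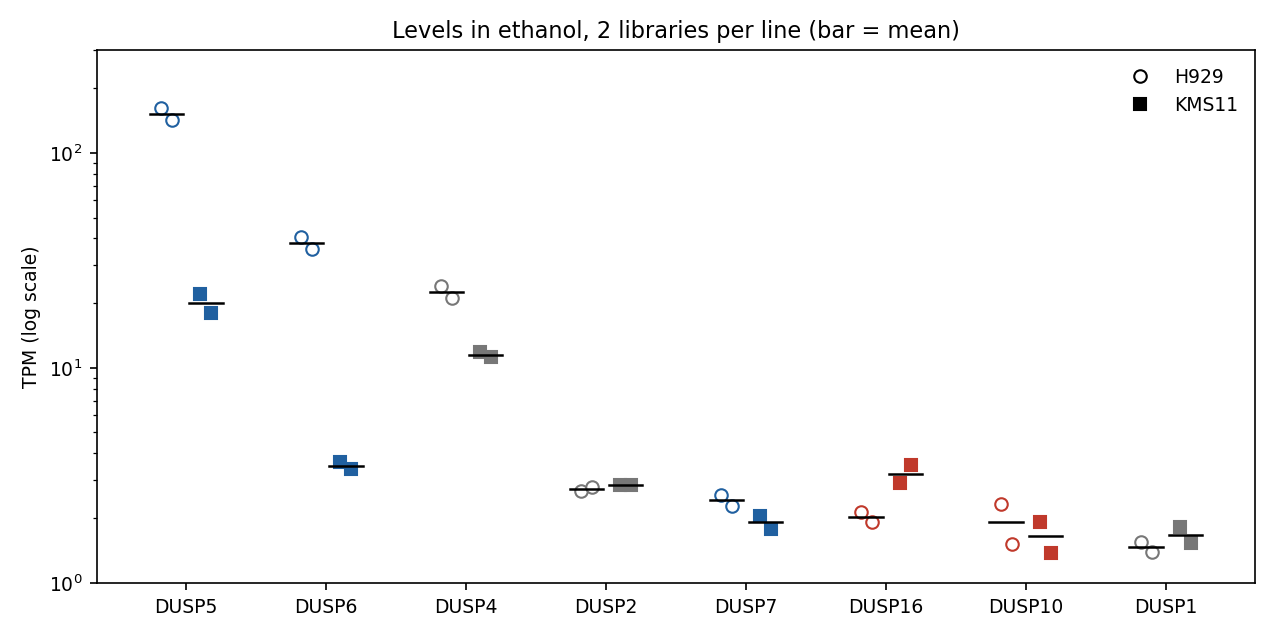
TPM (y axis, log scale) of 8 members (x axis) in the 2 ethanol libraries of H929 (open circles) and KMS11 (filled squares), with a bar for the mean, colored blue for ERK-directed, gray for broader-range and red for JNK/p38-directed members. DUSP8, at 0 or near it, is not drawn. DUSP5 and DUSP6 stand far higher in H929, while the 5 members on the right lie between 1 and 4 TPM in both lines.

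DUSP9, the remaining classical MAP kinase phosphatase, had 0 to 9 counts per library and was not tested. Of 19 other phosphatases matched from a list of DUSP family members and MAP kinase tyrosine phosphatases, 14 were tested and 2 were called across both lines, both higher, with a list median of 0.11, where 10.4% of all tested genes were called. In H929 the same list had 4 genes higher and 3 lower, the latter, named after their values were seen, being DUSP12, DUSP23 and PTPN7 at log2 fold changes of -0.52, -0.38 and -0.66, where 42.0% of all tested genes were called. PTPRR, a tyrosine phosphatase that binds and inactivates ERK and p38, was at 0.511 and 0.560 CPM in H929 in ethanol and 4.26 and 5.32 CPM in fluvastatin. In KMS11 PTPRR was at 0 and 0.0274 CPM in ethanol and at 0.469 and 0.731 CPM in fluvastatin. Its log2 fold change in H929 was 3.16 (adjusted p = 1.2e-04), and the groups did not overlap in either line. DUSP3, a small atypical member without the kinase interaction domain, rose by 0.49 (SE 0.11, adjusted p = 0.031).

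Of all tested genes, 10.4% were called across both lines, 42.0% in H929 and 3.12% in KMS11. Calls among the kinases of the MAP kinase cascades are to be read beside these shares. Within KMS11 no tested gene of the ERK, JNK, p38 or stress-kinase lists below was called. In the ERK cascade 1 of 9 tested genes was called, MAPK3, an ERK kinase, at a log2 fold change of 0.72 (SE 0.15, adjusted p = 0.027), with a list median of 0.07, and in H929 3 of the 9 were higher. In the JNK cascade 1 of 7 was called, the scaffold MAPK8IP1 at 2.42 (SE 0.30, adjusted p = 0.0040), whose level was at most 0.157 CPM in KMS11, with a list median of -0.01, and it was also the 1 gene of this list called in H929. In the p38 cascade 1 of 8 was called, the p38 isoform MAPK11 at 1.16 (SE 0.30, adjusted p = 0.045), with a list median of 0.04. MAPK11 passed in neither line alone (adjusted p = 0.10 in each) and was at most 0.878 CPM in H929. In H929 2 of these 8 fell, MAP2K6, a p38-activating kinase, by 2.46 on the log2 scale and MAPKAPK3, a kinase downstream of p38, by 0.46, both named after their values were seen. The JNK kinases MAPK8, MAPK9 and MAPK10 were at log2 fold changes across both lines of -0.03, -0.02 and -0.22. The p38 kinases MAPK12, MAPK13 and MAPK14 were at 0.16, -0.19 and -0.02. None of these passed, and all were named after their values were seen. MAPK12 was at -0.59 in H929 and 0.89 in KMS11, neither of them called. Among 16 kinases that feed the stress cascades 1 was called, MAP3K20, a kinase activated by stalled ribosomes, which fell by 0.37 (SE 0.09, adjusted p = 0.039), although the list median was 0.31. In H929 5 of these 16 rose and 1 fell, the greatest rises, named after their values were seen, being those of TAOK3 at 1.09 and MAP3K5 at 1.01.

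AP-1 genes encode the main nuclear targets of JNK signaling. Of 12 tested, 5 rose across both lines, where 6.50% of all tested genes did, with a list median of 0.43 beside 0.03 over all tested genes. JUN, the substrate that gave JNK its name, was at 5.62 and 4.04 CPM in H929 in ethanol and 59.4 and 62.9 CPM in fluvastatin, and at 5.06 and 3.83 CPM and 38.6 and 35.5 CPM in KMS11. Its log2 fold change was 3.36 (SE 0.18), that of ATF3, a stress-induced repressor, was 2.29 (SE 0.11) and that of JDP2, a JUN partner, was 2.20 (SE 0.30). The other calls, named after their values were seen, were JUND at 1.69 and FOSL2 at 0.74. Within each line 5 AP-1 genes rose, where 22.7% of all tested genes rose in H929 and 2.58% in KMS11, and in H929 FOSL1 fell.

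Genes of ERK feedback and output, which like DUSP5 and DUSP6 are transcribed on ERK activity, gave 1 call of 16 across both lines. It was IER2 at 0.59 (SE 0.15, adjusted p = 0.040), with a list median of 0.01, where 10.4% of all tested genes were called. In KMS11 none of the 16 was called, against 3.12% of all tested genes. In H929 9 of the 16 were called, 5 higher and 4 lower, against 42.0% of all tested genes. Named after their values were seen, ETV4 fell there by 2.07, ETV1 by 1.02 and CCND1 by 0.70 on the log2 scale, while EPHA4 rose by 1.14. In ethanol the same list had 9 genes lower and 4 higher in KMS11 than in H929, with a median of -0.89 beside -0.02 over all tested genes, of which 72.0% were called and 36.4% were lower. Among them, named after their values were seen, the ERK-responsive factor ETV5 was at -2.42 and the feedback inhibitor SPRY4 at -1.88, whereas the related inhibitor SPRY1 was at 1.82, in the opposite direction. FGFR3 RNA was lower in H929 in ethanol, at 85.9 and 53.7 CPM, than in KMS11, at 501 and 463 CPM. Its log2 fold change with fluvastatin was -0.26 in H929 and 0.02 in KMS11, neither of which passed. The paper lists KMS11, and not H929, among the lines with an FGFR3 mutation, and the part of FGFR3 was not tested.

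Over the 8 libraries the genes with the pattern most like DUSP16, by Pearson correlation of log2 CPM among 10586 protein-coding genes, were ATF3 (r = 0.997), PRMT2, a protein arginine methyltransferase (0.980), TUBA1A, an alpha tubulin (0.980), DPYSL2, a tubulin-binding protein (0.974), and SNN, which encodes stannin (0.971). For DUSP8 they were ATF3 (0.990), DPYSL2 (0.985), DUSP16 (0.980), JUN (0.979) and PRMT2 (0.969). The points share the 4 groups of line and treatment, so any gene that responds to fluvastatin alike in both lines scores high, and no test was made. ATF3 was at 5.58 and 5.16 CPM in H929 in ethanol and 24.5 and 26.5 CPM in fluvastatin, and at 6.55 and 5.88 CPM and 30.4 and 32.7 CPM in KMS11. DUSP16 and ATF3 thus showed changes of close size in both lines.

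Total expected counts ranged from 26702515 to 41910446 per library, and replicates differed by more than counting error in every group. FGFR3 and NSD2 were detected in all libraries, FGFR3 at 44.3 to 544 CPM. Of 8 plasma cell markers all were detected in every library, CD38 at as little as 0.01 TPM. Their summed level was lower in fluvastatin without overlap in both lines, at 1995 to 2138 TPM in ethanol and 1679 to 1734 TPM in fluvastatin in H929, and at 893 to 921 TPM and 644 to 731 TPM in KMS11. The monocyte genes CD14 and CSF1R were at 0 in all 8 libraries. Summed epithelial markers, mainly EPCAM, were at 31.7 to 37.0 TPM in KMS11 and at most 0.29 TPM in H929. T cell markers summed to 1.51 to 3.54 TPM in H929, higher in fluvastatin, and to at most 0.46 TPM in KMS11, of which CD3E made up nearly all. Their part in the differences between lines or treatments was not tested.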

How the data were processed

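RNA was measured in 8 libraries from H929 and KMS11 cells, 4 groups of line and treatment with 2 replicates each, grouped by the labels of the samples. The authors prepared stranded total RNA libraries depleted of ribosomal RNA, aligned reads to GRCh38 with STAR 2.5.2b and quantified genes of GENCODE release 26 with RSEM 1.3.0 (versions from the submitters' processing notes). The deposited expected counts are RSEM's estimates of fragments per gene, not normalized, with ambiguous fragments divided between genes, and the strand setting is not given in the sources used here. The deposited TPM values were scaled by the authors to effective length and library total over all listed genes, so only TPM was compared between genes. The deposited lengths, other values than expression, were used to find which DUSP8 transcripts received its reads. 

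Gene symbols and biotypes came from GENCODE release 44, which held 57392 of 58219 identifiers, 19683 of them protein-coding. After rounding, edgeR 4.0.16 in R 4.3.3 scaled the counts by TMM and tested the 13129 protein-coding genes that filterByExpr kept (counts of at least 10, totals of at least 15) with glmQLFit and glmQLFTest, at an adjusted p of 0.05. The fit across both lines had a term for the line, and responses within lines, their difference and the lines in ethanol came from 1 fit of 4 group means that shares its estimate of the spread. The SE is the size of the log2 fold change over the square root of F. DESeq2 1.42.0 and limma 3.58.1 on log2(TPM + 1) and log2(TPM + 0.1) were alternatives, beside library size scaling, no filter, a filter of at least 1 CPM in 4 libraries, all annotated genes, a replicate block, removal of a GC trend, no line term, an adjusted p under 0.01, each library left out, and other class assignments. The fits were tested on simulated data. Libraries held 26702515 to 41910446 counts. Precision was limited by the spread between replicates for abundant members and also by counting for low ones, such as DUSP2 with 79 counts in its lowest library.

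Promoters were the 250 bases before the RefSeq start site in GRCh38.p14. The members and all gene lists were chosen with earlier results of these data known. The genes named were the 9 members and DUSP9, up to 3 called genes with the greatest change per list, the 5 genes most correlated with each of the 2 members of greatest change (mean log2 CPM of at least 1), and FGFR3, NSD2, JUN and ATF3. Other genes are said to have been named after their values were seen.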

Additional observations from a re-analysis of the deposited data

How the results depend on the processing

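Of the members' log2 fold changes, those of DUSP8, DUSP10 and DUSP16 stayed positive across both lines and within each line under every alternative run. DUSP8 was kept only through its fluvastatin libraries, so its sign was fixed beforehand, and DUSP16 was listed with its rise known. For DUSP8 and DUSP16 the constant sign is therefore description, and only for DUSP10 is it a check on the processing. Across both lines the number of members called was 3 at an adjusted p under 0.01 and 1 (DUSP16) without the cell line term, 7 with the GC trend removed (DUSP2 and DUSP5 added), and 3 to 6 with each library left out. Within KMS11 it was 2 with limma at either pseudocount and 2 to 4 with each library left out; DESeq2 gave no adjusted p for DUSP8 there. For the difference between the line responses it was 1 without a filter (DUSP2), with the GC trend removed (DUSP16) and with limma on log2(TPM + 1) (DUSP8, near 0 in ethanol in both lines and not otherwise compared between responses), and 0 to 1 with each library left out.

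The class difference across both lines was 1.64 and 2.31 with limma at a pseudocount of 1 and 0.1, 2.02 with the broader-range members reassigned and 2.97 by means with DUSP8 at its bound. In H929 it was 2.19 with the GC trend removed, 1.46 with limma on log2(TPM + 1), 2.01 reassigned and 3 by means. In KMS11 it was 2.72 with the GC trend removed, 1.75 and 2.26 with limma, 1.79 reassigned, 2.95 by means and 2.34 to 2.62 with each library left out. The smaller values at a pseudocount of 1 follow from its size beside TPM near 1. In the main fit the JNK/p38-directed median was the value of DUSP16, so the class difference there is not independent of the known rise of that gene.

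Small changes turned in sign, none of them called except where stated. With each library left out, DUSP4 ranged from -0.12 to 0.033 across both lines and from -0.016 to 0.17 in KMS11, DUSP2 from -0.62 to 0.18 and DUSP5 from -0.15 to 0.027 in KMS11, and the DUSP6 difference between responses from -0.19 to 0.071. With limma on log2(TPM + 1) and log2(TPM + 0.1), DUSP4 in KMS11 was -0.028 and -0.031, and the lines in ethanol differed by 0.11 and 0.17 in DUSP1 and by 0.044 and 0.058 in DUSP2. The DUSP6 difference between responses was 0.043 with the first and that of DUSP16 -0.072 with the second. With the GC trend removed, the lines in ethanol differed by 0.59 in DUSP2, which was then called, and by -0.073 in DUSP16. The cause of these changes was not tested.

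Replicate numbers were not taken to pair the samples, since the labels name nothing shared by a number and, with 2 pairs per line, fluvastatin and ethanol libraries of the same number deviated together in H929 (r = 0.77 over 5561 genes) but not in KMS11 (r = -0.08). With the replicate block 3 members were called across both lines, DUSP6 and DUSP7 being lost, and 1 member, DUSP2, differed between the line responses. The share of all tested genes called with the block is not given.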
